A study of Rattus norvegicus with 9 samples.

Results

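The genes for potassium channels of the rat vestibular epithelium were followed through chronic exposure to 3,3′-iminodipropionitrile (IDPN), a nitrile that is toxic to hair cells (HCs). The members were the protein-coding genes whose symbol begins with Kcn and whose level averaged at least 0.5 CPM (counts scaled to a common library total) over the 9 libraries. By this rule 53 of the 92 Kcn symbols were members, in a table of 32883 genes, and 39 lay below the threshold. Kcna5 (0.55 CPM) and Kcnj2 (0.687 CPM) were the members closest to it, and Kcne4 (0.418 CPM) lay just under it. The samples came from male Long-Evans rats that drank plain water (Control), or water with 20 mM IDPN for 3 weeks (IDPN-3wk) or 7 weeks (IDPN-7wk). Each library held RNA from the cristae and utricles of 1 rat, pooled, so HCs, supporting cells, dark cells, nerve endings and glia were mixed, and fewer cells of a type cannot be told apart from less RNA per cell. There were 3 rats in each of the 3 groups, and both IDPN groups were compared with the same controls. According to the paper, the controls included rats killed at both time points, and the labels do not say which. Age at sampling may therefore differ between the groups, and it cannot be told apart from exposure time. The sample titles carry animal codes whose meaning the labels do not give. The 3 controls share a code that no IDPN rat has, so whatever it marks cannot be told apart from the treatment.

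Potassium channels let potassium ions leave or enter cells and so set the resting voltage and shape the response to a stimulus. In the vestibular organs, potassium enters HCs from the endolymph through the transduction channels of the hair bundle and leaves through channels of the basolateral membrane. The type I HC is wrapped by a calyx, an afferent nerve terminal that has voltage-gated potassium channels of its own. Dark cells beside the sensory epithelium secrete potassium back into the endolymph through a channel made of the products of Kcnq1 and Kcne1. The family comprises voltage-gated pore subunits (Kcna to Kcnh, Kcnq), their silent partners (Kcns, Kcnv, Kcng) and helper subunits (Kcnab, Kcnip, Kcne), inward rectifiers (Kcnj), two-pore-domain leak channels (Kcnk) and channels gated by calcium or sodium (Kcnm, Kcnn, Kcnt).

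Library totals ran from 31100118 to 46018385 estimated counts, and a level of 3 counts corresponded to 0.0611 to 0.101 CPM, a floor that covers counting error only. All levels below are CPM after TMM scaling, which do not allow for transcript length, so levels are compared between libraries and not between genes. The number of genes detected after thinning to the same depth was 15223 to 15358 in 3 libraries (the third control and the first and second IDPN-3wk replicates) and 16608 to 17090 in the other 6. In these 3 libraries 19 of 159 member values (11.9%) were 0, against 1 of 318 (0.314%) in the other 6, and 12 members had at least 1 of these zeros. Calls of members that are gained or lost without these libraries are named beside the member or under the dependence on processing. The markers of the labelled tissue were present in every library, with 1020 to 2010 CPM summed over 10 HC genes. Skeletal muscle markers reached at most 1.09 CPM.

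Together the 53 genes had fewer reads in every IDPN library than in any control. Summed over members, Control libraries held 1463 to 1550 CPM (mean 1501 ± 44.8, SD, n = 3), IDPN-3wk libraries 977.7 to 996 CPM (987 ± 9.14) and IDPN-7wk libraries 817.3 to 833.9 CPM (823.3 ± 9.18). The 3 groups did not overlap. The HC-enriched channel gene Kcna10 made up 34.3% of the net difference from Control at 3 weeks and 30.4% at 7 weeks, and the helper subunit gene Kcnab1 made up 19.9% and 15.2%. Kcna2 accounted for 11.2% and 12.3% and Kcna1 for 6.01% and 10.1%. The level of the inward rectifier gene Kcnj16 overlapped between the groups, and its share of the summed reads went from 21.9% in Control to 31.1% and 37.5%.

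**Figure D1:**
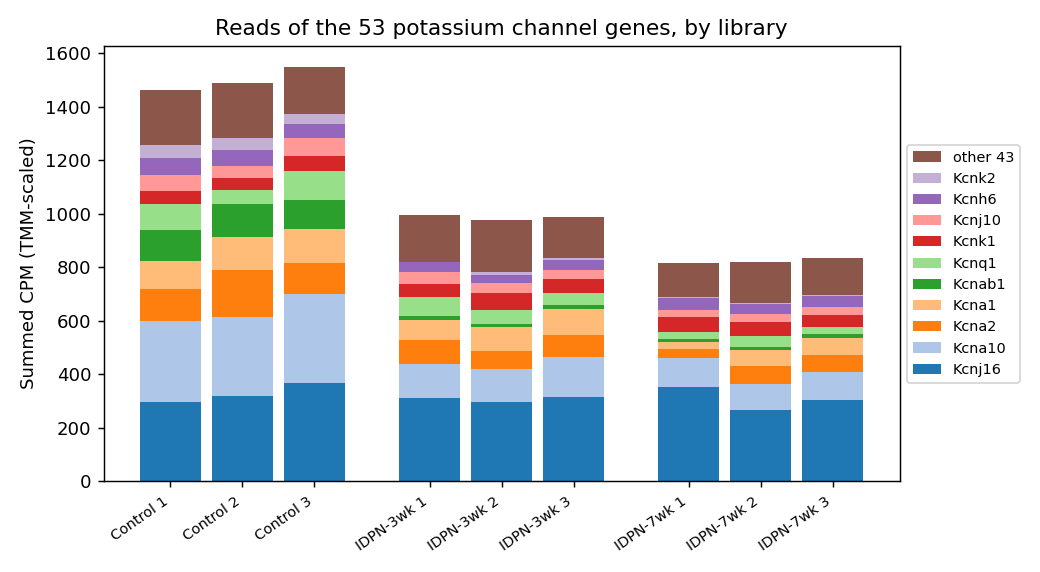
Reads of the 53 potassium channel genes in each of the 9 libraries, as stacked bars of TMM-scaled CPM from 0, with 10 genes drawn separately and the other 43 combined. Control bars reach 1463 to 1550 CPM and IDPN-7wk bars 817.3 to 833.9 CPM, and the segments of Kcna10 and Kcnab1 shrink in every IDPN library while that of Kcnj16 stays between 268 and 367 CPM.

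A gene was called with an adjusted p under 0.05 in edgeR's quasi-likelihood test over all 15517 genes tested and a change of more than 1.5-fold. At 3 weeks 4 of the 53 members (7.55%) were called lower, where 1.21% of all genes tested were called lower. These were Kcna10, Kcnab1, Kcnh6 and Kcnk2. At 7 weeks 9 members (17%) were called lower, beside 3.13% of all genes tested: Kcna10, Kcnab1 and Kcnk2 again, with Kcna1, Kcna2, Kcnj8, Kcnj10, Kcnma1 and Kcnq1. No member was called higher by edgeR at 3 weeks (2 higher at an unadjusted p under 0.05, where 7.12% of all genes were, and 1, Kcnk12, with DESeq2) or at 7 weeks (0 higher at an unadjusted p under 0.05, where 8.55% of all genes were, and 0 with DESeq2). Of all genes tested, 0.438% and 2% were called higher. In the other direction 10 members at 3 weeks and 15 at 7 weeks were lower at an unadjusted p under 0.05, beside 8.63% and 10.7% of all genes. All 3 IDPN libraries lay below all 3 controls in 16 members at 3 weeks and 19 at 7 weeks, beside 10.9% and 17.1% of all genes, and above them in 1 and 2 members, beside 8.78% and 17.2%. The log2 fold change was below 0 in 39 of the 53 members at each time (73.6%), beside 50% of all genes at 3 weeks and 48.9% at 7 weeks. Its median over members was −0.56 at 3 weeks and −0.51 at 7 weeks, beside a median of all genes within 0.01 of 0. Between 3 and 7 weeks, edgeR called 0 members in either direction, with 8 lower and 1 higher at an unadjusted p under 0.05 (7.46% and 6.33% of all genes), while DESeq2 called Kcna1 and Kcnk2 lower. The background of that comparison was 0.135% called lower and 0.348% called higher. The 7-week libraries lay below all 3-week libraries in 9 members and above them in 6, beside 8.92% and 12.1% of all genes.

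Calls were made mostly among the more abundant members. Of the 13 members that averaged 10 CPM or more, 4 were called lower at 3 weeks and 7 at 7 weeks, and at 7 weeks all 13 had a log2 fold change below 0 (median −0.98). Of the 40 members under 10 CPM, edgeR called 0 lower at 3 weeks, as did DESeq2, and edgeR called 2 at 7 weeks (Kcnma1 and Kcnj8), and 26 were below 0 at 7 weeks (median −0.36). At 3 weeks the medians did not differ in this way. The median was −0.55 in the 13 members (11 below 0) and −0.61 in the 40 (28 below 0). Standard errors of the log2 fold change exceeded 1 in members that were 0 in some libraries, such as Kcnq5, and 0 of these were called by edgeR.

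**Figure D2:**
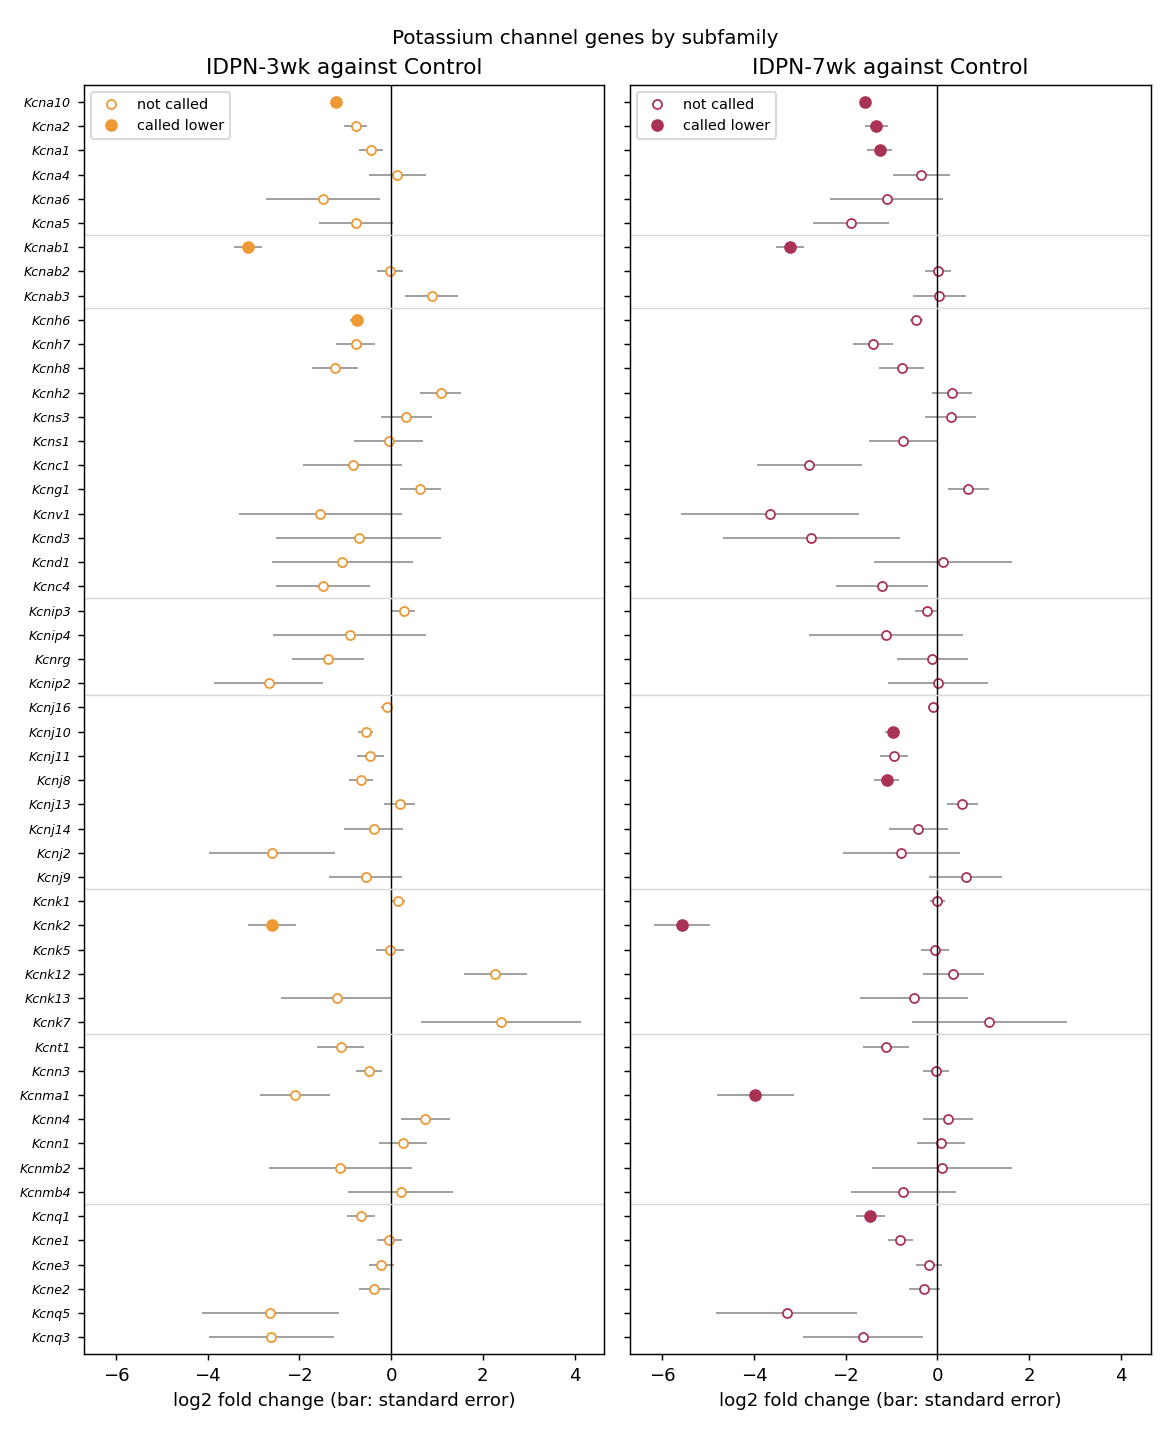
Log2 fold change of the members reported here against Control at 3 weeks and at 7 weeks, on a common axis, grouped by subfamily and ordered within it by level in Control. Bars are standard errors from the fit of 3 rats per group, and filled points mark genes called lower. Filled points number 4 at 3 weeks and 9 at 7 weeks, and most points lie left of 0 in each panel.

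Kcna10, Kcnab1 and Kcnk2 were called lower at 7 weeks under each of the 19 alternative settings examined, and their start regions are shown as the sequence context of these genes. Kcna10 and Kcnab1 are on the paper's list of genes lower in all its comparisons. Those comparisons include these libraries, so the calls of Kcna10 and Kcnab1 are not independent of that list. The windows are those of RefSeq on GRCr8 (the authors' files use Rnor6.0), from 250 bases before to 50 bases after the start, written 5′ to 3′ on the gene's strand. Capitals mark a match to CAGCTG, an E-box. The Kcnk2 starts are numbered by coordinate, and since the gene is on the minus strand, its second start lies upstream of its first.
Kcna10 (chr2:197474464-197474763, plus strand): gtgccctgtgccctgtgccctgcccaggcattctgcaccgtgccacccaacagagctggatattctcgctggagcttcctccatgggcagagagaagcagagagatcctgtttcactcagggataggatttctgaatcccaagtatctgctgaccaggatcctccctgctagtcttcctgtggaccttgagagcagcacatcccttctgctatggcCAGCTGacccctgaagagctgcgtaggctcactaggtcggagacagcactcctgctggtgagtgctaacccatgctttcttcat
Kcnab1 (chr2:151614301-151614600, plus strand): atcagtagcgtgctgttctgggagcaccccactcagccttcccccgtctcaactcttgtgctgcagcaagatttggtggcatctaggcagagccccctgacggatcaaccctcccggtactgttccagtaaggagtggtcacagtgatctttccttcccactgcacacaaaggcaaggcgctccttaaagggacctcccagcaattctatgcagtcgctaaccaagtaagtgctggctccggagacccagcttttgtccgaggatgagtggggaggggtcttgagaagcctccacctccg
Kcnk2 first start (chr13:103438593-103438892, minus strand): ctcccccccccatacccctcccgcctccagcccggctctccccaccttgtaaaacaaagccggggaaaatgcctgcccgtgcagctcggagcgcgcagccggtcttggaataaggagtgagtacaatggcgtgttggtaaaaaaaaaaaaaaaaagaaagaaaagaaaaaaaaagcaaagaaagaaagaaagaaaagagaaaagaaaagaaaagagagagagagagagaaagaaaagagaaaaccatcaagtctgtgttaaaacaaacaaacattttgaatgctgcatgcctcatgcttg
Kcnk2 second start (chr13:103494637-103494936, minus strand): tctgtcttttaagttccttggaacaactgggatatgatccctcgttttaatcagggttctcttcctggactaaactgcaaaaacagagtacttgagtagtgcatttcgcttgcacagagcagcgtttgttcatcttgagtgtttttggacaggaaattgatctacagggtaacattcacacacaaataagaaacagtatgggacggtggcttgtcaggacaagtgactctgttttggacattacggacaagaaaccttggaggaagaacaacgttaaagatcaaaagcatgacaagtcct
The Kcna10 window held 1 CAGCTG, at position 217 from its first base, and TATAAA and CCAAT were not found in the 4 windows on either strand. RefSeq windows were found for 37 of the 53 members (40 windows). CAGCTG, searched on both strands, occurred in 27.5% of these and in 15.1% of all 33469 windows of the same length. CCAAT occurred in 30% and 37.5%, and TATAAA in 2.5% and 14.2%. Member windows had a median GC content of 62% against 51.7% for all windows. Among members called at either time, 22.2% of 9 windows held CAGCTG, and among the other members 29% of 31.

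Among the voltage-gated Kcna pore genes, 3 of 6 members were called lower by 7 weeks and all 6 then had a log2 fold change below 0. Kcna10 encodes a cyclic nucleotide-sensitive channel subunit that is enriched in HCs. Its level was 300, 293 and 335 CPM in the Control libraries, 126, 125 and 149 CPM at 3 weeks and 107, 96.8 and 107 CPM at 7 weeks. The groups did not overlap at either time. The level was 2.31-fold lower at 3 weeks (log2 fold change −1.21 ± 0.10, SE, adjusted p = 0.000758) and 2.99-fold lower at 7 weeks (−1.58 ± 0.10, adjusted p = 3.32e-05). The further difference from 3 to 7 weeks, −0.36 ± 0.10, had an adjusted p of 0.167. Among the libraries with fewer detected genes the 3-week difference on the log2 scale was −1.4, and among the others it was −0.99.

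Kcna1 and Kcna2 encode pore subunits that combine in the axons of neurons, next to the nodes of Ranvier, and occur in vestibular afferents. Kcna2 measured 121, 177 and 116 CPM in Control, 88.3, 68.7 and 85.1 CPM at 3 weeks and 34.2, 68 and 62.4 CPM at 7 weeks. It was 2.51-fold lower at 7 weeks (−1.33 ± 0.25, adjusted p = 0.0128), and at 3 weeks the difference of −0.77 ± 0.25 had an adjusted p of 0.17, with groups that did not overlap. Without Control replicate 2 its adjusted p at 7 weeks was 0.052. Kcna1 measured 105, 123 and 125 CPM in Control, 74.9, 89.7 and 95.7 CPM at 3 weeks and 26.5, 59 and 62.2 CPM at 7 weeks. All IDPN libraries were below all controls, and the 7-week level was 2.39-fold lower (−1.26 ± 0.27, adjusted p = 0.0218), a call that was lost without any 1 of the Control libraries and without the 3 libraries with fewer detected genes. Both genes were lowest in IDPN-7wk replicate 1.

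Markers of glia and neurons were read in the same libraries. The summed level of 7 Schwann cell markers was 9565 to 12022 CPM in Control, 7695 to 10223 CPM at 3 weeks and 3259 to 6839 CPM at 7 weeks, lowest in IDPN-7wk replicate 1, with 2 of the 7 (Mbp and Pmp22) called lower at 7 weeks and 0 called by edgeR at 3 weeks, where the sums overlapped those of the controls. Of 6 afferent neuron markers 1, Snap25, was called lower at each time, and the summed level of the list was 104 to 119 CPM in Control, 67.4 to 77.5 CPM at 3 weeks and 62.4 to 78.5 CPM at 7 weeks. The other 5 were not called, and Nefh lay above the controls in every IDPN library (log2 fold change 2.94 ± 0.98 at 3 weeks, adjusted p = 0.177). The median log2 fold change of the 6 was 0.32 at 3 weeks and −0.13 at 7 weeks. The part of these cells in the lower Kcna1 and Kcna2 was not tested. The remaining Kcna members, Kcna4, Kcna5 and Kcna6, were not called. Kcna5 was 1.05, 1.03 and 0.619 CPM in Control and 0.285, 0.288 and 0.152 CPM at 7 weeks (−1.88 ± 0.83, adjusted p = 0.249). In RefSeq's order of protein-coding genes on GRCr8, Kcna10 is adjacent to Kcna2, and Kcna1 lies between Kcna5 and Kcna6.

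Kcnab1, which encodes a cytoplasmic beta subunit that binds Kcna pores, had the lowest fitted log2 fold change of the 53 members at 3 weeks. It measured 115, 122 and 109 CPM in Control, 14.1, 8.72 and 17.1 CPM at 3 weeks and 10.1, 9.44 and 17.9 CPM at 7 weeks. Every control was above every IDPN library. The level was 8.69-fold lower at 3 weeks (−3.12 ± 0.30, adjusted p = 0.00132) and 9.25-fold lower at 7 weeks (−3.21 ± 0.30, adjusted p = 0.000296). From 3 to 7 weeks the groups overlapped (−0.10 ± 0.28, adjusted p = 0.93). The other beta subunit genes did not pass the test. Kcnab2 measured 9.79, 10.7 and 6.22 CPM in Control and 9.25, 9.29 and 8.43 CPM at 7 weeks (0.01 ± 0.28). Kcnab3 measured 0.76 to 2.02 CPM in Control and 2.09 to 2.94 CPM at 3 weeks, where the groups did not overlap (0.88 ± 0.58, adjusted p = 0.503).

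Of the 13 members from Kcnb to Kcnh with Kcns and Kcnv, 1 was called lower at 3 weeks and 0 at 7 weeks. Kcnh6 encodes a pore of the ether-à-go-go-related (ERG) type. It measured 63.9, 58.4 and 51 CPM in Control, 37.2, 30.3 and 35.9 CPM at 3 weeks and 46.1, 38.2 and 41.7 CPM at 7 weeks. It was 1.68-fold lower at 3 weeks (−0.74 ± 0.14, adjusted p = 0.0293), and at 7 weeks the difference was smaller (−0.46 ± 0.14, adjusted p = 0.0953). Of the 10 members called at either time, 9 had a lower fitted level at 7 weeks than at 3 weeks and Kcnh6 a higher one (0.29 ± 0.14, adjusted p = 0.412). Of these 10, 6 were called at 7 weeks only, so their selection itself favours a lower level at 7 weeks. Of all 53 members, 34 (64.2%) had a log2 fold change below 0 from 3 to 7 weeks, beside 48.9% of all genes. In that comparison edgeR called 0 members. The 3-week call of Kcnh6 was lost without the 3 libraries with fewer detected genes, and without Control replicate 1 or 2, IDPN-3wk replicate 2 or IDPN-7wk replicate 3.

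Its relatives Kcnh7 and Kcnh2 were not called by edgeR. Kcnh7 measured 8.33, 4.67 and 7.6 CPM in Control and 1.75, 2.9 and 3.09 CPM at 7 weeks (−1.41 ± 0.43, adjusted p = 0.0943), with groups that did not overlap. Kcnh2, the ERG channel gene of the heart, measured 2.72, 2.63 and 5.35 CPM in Control and 6.08, 11.6 and 5.04 CPM at 3 weeks, which overlapped (1.08 ± 0.44, adjusted p = 0.267). Kcnc1, the gene of a fast-gating delayed rectifier, measured 1.29, 2.04 and 4.5 CPM in Control and 0.224, 0.473 and 0.43 CPM at 7 weeks (−2.79 ± 1.14, adjusted p = 0.213). Of these 3, Kcnh7 was called lower at 7 weeks by DESeq2, and by edgeR without the 3 libraries with fewer detected genes. In an edgeR fit of only the groups compared, both Kcnh7 and Kcnc1 were called lower at 7 weeks.

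The Kcnip genes encode calcium-binding proteins that associate with Kcnd pores, and 0 of the 4 members of this group with Kcnrg were called by edgeR or DESeq2 in any comparison (1, Kcnip2, had an unadjusted p under 0.05, lower at 3 weeks than in Control and higher at 7 than at 3 weeks). Kcnip3 measured 14.9, 12.1 and 11.1 CPM in Control, 15.3, 19.5 and 11.1 CPM at 3 weeks and 9.11, 13 and 10.2 CPM at 7 weeks. The groups overlapped throughout. Kcnip4 was 2.18 and 2.1 CPM in 2 Control libraries and 0 in Control replicate 3, and 0, 2.05 and 0.246 CPM at 3 weeks, so its zeros fell in libraries with fewer detected genes. The Kcnd pores Kcnd1 and Kcnd3 were at 0 in 2 of those 3 libraries as well, and neither passed the test.

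Among the inward rectifier genes, 2 of 8 members were called lower at 7 weeks and 0 at 3 weeks (2 at an unadjusted p under 0.05, and 0 with DESeq2). Kcnj10 encodes a rectifier of glia and supporting cells that takes up potassium. It measured 56.2, 47.3 and 67 CPM in Control, 45.2, 37.4 and 33.4 CPM at 3 weeks and 27.9, 29 and 29.8 CPM at 7 weeks. The 3 groups did not overlap. It was 1.97-fold lower at 7 weeks (−0.98 ± 0.16, adjusted p = 0.007), and the 3-week difference of −0.55 ± 0.16 had an adjusted p of 0.128. Its highest adjusted p at 7 weeks over the 19 alternatives was 0.0368. Kcnj16, whose product joins that of Kcnj10 in one channel, measured 298, 320 and 367 CPM in Control, 313, 295 and 314 CPM at 3 weeks and 354, 268 and 303 CPM at 7 weeks. These ranges overlapped, and the difference at 7 weeks was −0.09 ± 0.12 (adjusted p = 0.758).

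Kcnj8 encodes a pore of potassium channels that close with ATP, known from pericytes and vascular muscle. It measured 10.8, 14.7 and 13 CPM in Control, 6.43, 10.5 and 7.47 CPM at 3 weeks and 5.23, 6.85 and 5.72 CPM at 7 weeks, all IDPN libraries being below the controls. It was 2.16-fold lower at 7 weeks (−1.11 ± 0.27, adjusted p = 0.0359), and this call was lost when any 1 of the 6 libraries compared was left out. Abcc9 encodes the regulatory subunit of that channel and is the adjacent protein-coding gene in RefSeq. It went from 18.9 ± 4.29 CPM (SD, n = 3) in Control to 12 ± 6.34 CPM at 3 weeks and 7.15 ± 1.27 CPM at 7 weeks (−1.40 ± 0.37, adjusted p = 0.0549), which missed the threshold. The summed level of 4 pericyte and smooth muscle markers was 99 to 136 CPM in Control, 133 to 150 CPM at 3 weeks and 111 to 140 CPM at 7 weeks, most of it from Pdgfrb (103 to 126 CPM at 7 weeks). Rgs5 (−0.57 ± 0.29, adjusted p = 0.322) and Myh11 (−0.80 ± 0.45, adjusted p = 0.38) lay below all controls at 7 weeks and did not pass the test. The part of these cells in the lower Kcnj8 was not tested. Kcnj11, the other pore gene of this channel type, measured 15.9, 25.4 and 10.1 CPM in Control and 9.02, 9.68 and 8.03 CPM at 7 weeks (−0.94 ± 0.30, adjusted p = 0.107), a difference that DESeq2 called and that edgeR called without the 3 libraries with fewer detected genes. Kcnj13, a rectifier gene of transporting epithelia, measured 9.84, 7.71 and 4.33 CPM in Control and 10.3, 11 and 10.6 CPM at 7 weeks, which did not overlap (0.54 ± 0.34, adjusted p = 0.444).

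Among the 6 two-pore-domain leak channel genes, Kcnk2 was called lower at both times and the other 5 were not called by edgeR. Kcnk2 encodes TREK1, a leak channel opened by stretch and heat. It measured 50.1, 45.6 and 36.3 CPM in Control, 2.53, 12.2 and 7.07 CPM at 3 weeks and 0.917, 1.42 and 0.405 CPM at 7 weeks. The 3 groups did not overlap. It was 6.06-fold lower at 3 weeks (−2.60 ± 0.53, adjusted p = 0.0387) and 47.5-fold lower at 7 weeks (−5.57 ± 0.62, adjusted p = 0.000743). From 3 to 7 weeks it was 7.84-fold lower (−2.97 ± 0.56, adjusted p = 0.0581), short of the threshold with edgeR and past it with DESeq2. Its 3-week log2 fold change stayed between −3.2 and −2.19 over the 19 alternatives, and the call was lost under 8, which included leaving out any 1 control, IDPN-3wk replicate 3, IDPN-7wk replicate 1 or the 3 libraries with fewer detected genes.

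Kcnk1, which encodes a weakly conducting leak channel, measured 50.9, 42.5 and 58.7 CPM in Control, 48.3, 64.8 and 55.3 CPM at 3 weeks and 54, 51.1 and 46.9 CPM at 7 weeks. The groups overlapped. Kcnk12 measured 1.38, 1 and 4.56 CPM in Control, 15, 15.2 and 3.23 CPM at 3 weeks and 2.53, 2.92 and 3.39 CPM at 7 weeks. Its high values were in the 2 IDPN-3wk libraries with fewer detected genes, and the highest control was the one of that kind. The difference at 3 weeks was 2.27 ± 0.68 (adjusted p = 0.14), and the log2 difference was 1.38 among libraries of that kind and 0.72 among the rest. DESeq2 called it higher at 3 weeks, and without the 3 libraries with fewer detected genes edgeR called it higher at 7 weeks.

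Of the 7 members gated by calcium or sodium, or helping such channels, 1 was called lower at 7 weeks. Kcnma1 encodes the pore of BK, the large-conductance channel opened jointly by voltage and calcium. It measured 6.93, 8.3 and 3.69 CPM in Control, 3.32, 0.438 and 0.615 CPM at 3 weeks and 0.285, 0.432 and 0.481 CPM at 7 weeks. All IDPN libraries were below all controls. It was 15.7-fold lower at 7 weeks (−3.97 ± 0.84, adjusted p = 0.0206), and the 3-week difference of −2.10 ± 0.77 had an adjusted p of 0.217. The 7-week call was lost without Control replicate 1 or 2 or any 1 IDPN-7wk library, and without the 3 libraries with fewer detected genes Kcnma1 was called at both times. Its helper subunit genes were not called: Kcnmb4 was 0.0281 to 1.69 CPM in Control and 0.506 to 0.617 CPM at 7 weeks. Kcnt1, a sodium-activated channel gene, measured 6.2, 6.64 and 15 CPM in Control and 3.06, 6.07 and 3.65 CPM at 7 weeks (−1.12 ± 0.51, adjusted p = 0.261). Kcnn3, the gene of a small-conductance calcium-activated channel, measured 5.32 to 8.33 CPM in Control and 6.58 to 7.13 CPM at 7 weeks (−0.02 ± 0.28). Kcnn2, which serves efferent inhibition in HCs, was below the threshold for membership, with 29, 19 and 17 counts in Control, 0 in each IDPN-3wk library and 7, 24 and 16 at 7 weeks. Its adjusted p at 3 weeks was 0.0606 with edgeR and 0.00324 with DESeq2, and 2 of the 3 IDPN-3wk libraries at 0 were those with fewer detected genes.

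**Figure D3:**
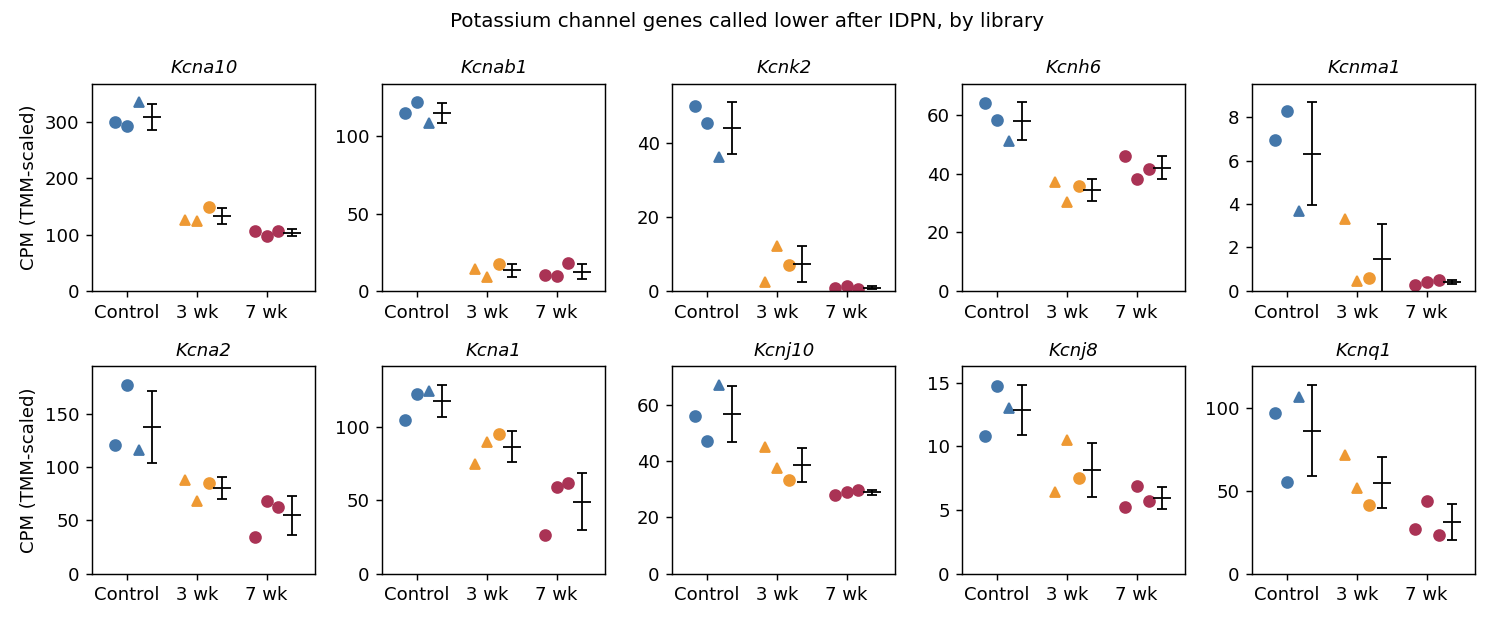
TMM-scaled CPM in each library of the 10 members called lower at 3 or 7 weeks, on linear axes from 0. Each point is 1 rat, triangles are libraries with fewer detected genes, and the black bars are the mean ± SD of 3 rats, the bar of Kcnma1 at 3 weeks being cut at 0. Kcnab1 falls from 109 or more to 17.9 or less, and for Kcnk2 the 7-week values reach at most 1.42 CPM.

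The Kcnq pores and Kcne helpers comprised 6 members, all with a log2 fold change below 0 at both times, of which 1 was called. Kcnq1 encodes the pore of the dark cell secretion channel. It measured 97.2, 55.2 and 107 CPM in Control, 72, 51.7 and 41.4 CPM at 3 weeks and 27.1, 43.8 and 23.4 CPM at 7 weeks. The 3-week values overlapped the controls and the 7-week values did not. The 7-week level was 2.75-fold lower (−1.46 ± 0.31, adjusted p = 0.0219), and the call was lost without Control replicate 1 or 3 or IDPN-7wk replicate 1 or 3, and without the 3 libraries with fewer detected genes. Kcne1, which encodes the helper of this channel, measured 26.3, 15.2 and 23 CPM in Control, 28.2, 16.2 and 18.4 CPM at 3 weeks and 12.3, 14.5 and 10 CPM at 7 weeks (−0.81 ± 0.28, adjusted p = 0.136). At 3 weeks its values overlapped the controls (−0.04 ± 0.28), and at 7 weeks they lay below all of them.

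The summed level of 4 dark cell markers was 731 to 833 CPM in Control, 524 to 601 CPM at 3 weeks and 261 to 467 CPM at 7 weeks. Of the 4, Slc12a2 was called lower at 7 weeks and Bsnd was called higher at 3 weeks (21.2 ± 4.1 CPM in Control and 53.8 ± 4.59 CPM, SD, n = 3). The part of dark cells in the lower Kcnq1 was not tested. The neuronal Kcnq genes had few reads. Kcnq5 was 3.29, 2.79 and 4.05 CPM in Control, 0, 0 and 1.63 CPM at 3 weeks and 0.407, 0.267 and 0.354 CPM at 7 weeks (−3.29 ± 1.54, adjusted p = 0.282). Both zeros were in libraries with fewer detected genes, and without the 3 libraries of that kind Kcnq5 was called lower at 7 weeks. Kcnq3 was 1.24 to 1.88 CPM in Control and 0.0411 to 0.713 CPM at 7 weeks (−1.62 ± 1.31, adjusted p = 0.578).

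**Figure D4:**
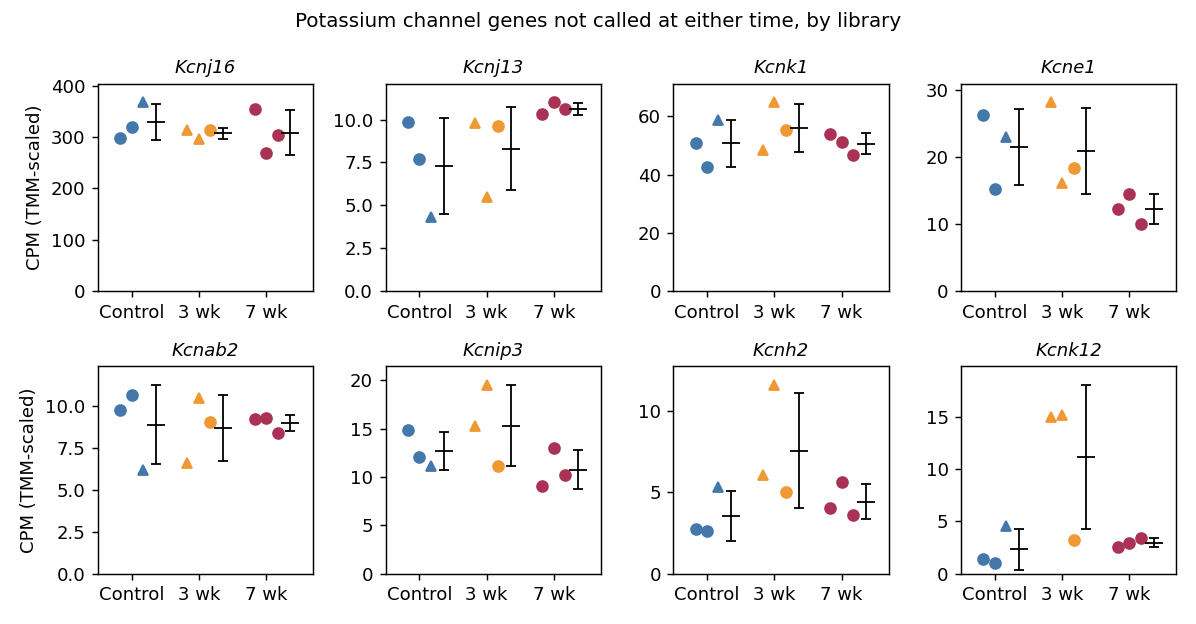
TMM-scaled CPM in each library of 8 members not called at either time, on linear axes from 0. Points are rats, triangles are libraries with fewer detected genes, and black bars are mean ± SD of 3 rats. Kcnj16 stays between 268 and 367 CPM, and the 2 highest Kcnk12 values, 15 and 15.2 CPM, are triangles of IDPN-3wk.

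Lists of genes for proteins that bind or anchor these channels, and for potassium transport by pumps and cotransporters, were examined too. Of 24 channel partners 20 were tested, and 1 was called lower at 3 weeks (Ank3, 101 ± 2.8 CPM in Control and 48.3 ± 15.5 CPM, SD, n = 3, adjusted p = 0.0284) and 1 at 7 weeks. The latter was Dpp6, whose product joins Kcnd pores, with 30 ± 9.68 CPM in Control, 10.1 ± 3.52 CPM at 3 weeks and 8.41 ± 3.71 CPM at 7 weeks (−1.83 ± 0.38, adjusted p = 0.0179). Of 14 potassium transporter and pump genes 10 were tested, with 4 called lower at 7 weeks. At 3 weeks Atp1b1 had an adjusted p of 0.0207, with a log2 fold change of −0.49 that is under the fold threshold, and 0 of the 10 were called by edgeR. Among them were the pump beta subunit genes Atp1b1 (484 ± 3.53 and 284 ± 10.4 CPM, adjusted p = 0.000746) and Atp1b3 (770 ± 42.7 and 425 ± 67.4 CPM, adjusted p = 0.00186). Another was the sodium-potassium-chloride cotransporter gene Slc12a2 (712 ± 51.4 and 283 ± 92.8 CPM, adjusted p = 0.00387).

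Markers of HCs and other cell types were read as well. Of 10 HC markers 3 were called lower at 3 weeks and 6 at 7 weeks, with summed levels of 1880 to 2010 CPM in Control, 1070 to 1380 CPM at 3 weeks and 1020 to 1200 CPM at 7 weeks. The sums at 3 and 7 weeks overlapped. At 3 weeks Gfi1 (log2 fold change 0.55 ± 0.40) and Cib2 (0.10 ± 0.17) lay above 0 and were not called, and the rest lay below 0. All 5 type I HC markers found were called lower at both times. Atp2b2, Adam11, Vsig10l2 and Bmp2 are on the paper's list of genes lower in all its comparisons. Those comparisons include these libraries, so the calls of these genes are not independent of that list. The sum of the 5 went from 6290 to 6700 CPM in Control to 2880 to 3500 CPM and 1530 to 1860 CPM. Most of it came from Spp1 (mean 5180 CPM in Control and 1500 CPM at 7 weeks). The sum of supporting cell markers went from 12700 to 13300 CPM to 5260 to 7530 CPM at 7 weeks, with 3 of 7 called lower (Otog, Otogl and Gjb6). Most of it came from Otog (mean 8470 CPM in Control and 3530 CPM at 7 weeks). Sox2, Gjb2, Tecta and Slc1a3 lay below all controls at 7 weeks and were not called. Macrophage markers, at 51.7 to 94.5 CPM in Control, were 159 to 203 CPM at 7 weeks. The part of these cell types in the lower channel genes was not tested.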

How the data were processed

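RNA from vestibular epithelium was sequenced with SMARTseq2, a full-length cDNA protocol with PCR amplification and no molecular identifiers. The authors mapped reads with STAR (2.5.3a) to the rat genome Rnor6.0 and counted genes with RSEM (1.3.0 in the submitters' processing notes), so the deposited table holds estimated counts (expected counts) per gene as whole numbers, without normalization. The strand used in counting is not given in the sources used here, so genes overlapping on opposite strands are uncertain.

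Genes were kept by filterByExpr (15517 of 32883), scaled by TMM and tested with the robust quasi-likelihood test of edgeR 4.0.16 (R 4.3.3, limma 3.58.1) in a single fit of 9 libraries with a mean per group, 6 residual degrees of freedom and Benjamini-Hochberg adjustment over all genes. Standard errors come from that fit. Genes were called at an adjusted p below 0.05 with a change of more than 1.5-fold. With 3 rats a group, the smallest two-sided p of an exact permutation test is 0.1, and none was used. DESeq2 1.42.0 was an alternative. The pipeline was tested on simulated data. Within-set differences are means of log2(CPM + 2).

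Named were members called in any comparison, the 5 with the smallest p in each, the 2 highest in Control per subfamily, channels known from HCs, afferents, supporting or dark cells, those at the threshold, and called partner genes. Kcnab3, Kcna4, Kcna5, Kcna6, Kcnd1, Kcnd3, Kcnj11, Abcc9 and the zeros were added after their values were seen. Some genes that meet this rule are not reported here. Members and lists were chosen with earlier results of these data known. No 2 libraries held identical counts, and the lowest chi-square per gene within a group was 18.7. All libraries carry one batch label. In the numbering of the library names, those with fewer detected genes are consecutive, and so are the IDPN-7wk libraries. The labels do not say what this numbering marks, and for IDPN-7wk it cannot be told apart from the treatment. Alternatives were RLE size factors, 2 other count filters, fits of 2 groups, other fold thresholds and each library left out. Added after the data were seen were fits without the libraries with fewer detected genes or with them as a covariate, and DESeq2 with no fold threshold.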

Additional observations from a re-analysis of the deposited data

Results flagged for a closer look

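Among the 39 Kcn genes below the threshold for membership, 2 lay above all controls in 1 IDPN group, Kcna3 at 7 weeks and Kcne4 at 3 weeks. Of all genes tested, 17.2% lay above all controls at 7 weeks and 8.78% at 3 weeks. Kcna3 had a mean of 0.18 CPM in IDPN-7wk (6 to 11 counts per library), where the Control libraries held 0 or 1 count. Kcne4 had a mean of 0.566 CPM in IDPN-3wk (14 to 27 counts), where the controls held 17, 15 and 0 counts. The 0 was in the control with fewer detected genes. The lowest Kcne4 value in IDPN-3wk was 0.471 CPM and the highest in Control 0.47 CPM, so the groups were separated narrowly. Kcna3 had too few counts to be tested, and Kcne4 did not pass the test at 3 weeks (log2 fold change 0.87 ± 1.29, SE, adjusted p = 0.803). The cause was not tested.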

How the results depend on the processing

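Over the 19 alternatives, Kcna10 and Kcnab1 were called lower at both times and Kcnk2 at 7 weeks in all of them, and Kcnj10 at 7 weeks in all but a fold change above 2. The causes of the changes below were not tested. At 3 weeks the 4 members called lower became 2 with only the 2 groups compared and 2 with a covariate for the libraries of fewer detected genes, and 2 to 5 with a library left out (2 without Control replicate 1 or 2). The 0 called higher became 1 (Kcnk12) with DESeq2, with either fold threshold, 1 with the covariate and 0 to 1 with a library left out. At 7 weeks the 9 called lower became 11 with DESeq2 and 12 with only the 2 groups compared, where Kcnc1, Kcnh7 and Kcnq5 were added. They became 5 to 10 with a library left out (5 without Control replicate 1 or 2). At that time 1 was called higher (Kcnk12) without the 3 libraries with fewer detected genes or with the covariate. Without those 3 libraries, 3 members were called lower at 3 weeks (Kcna10, Kcnab1 and Kcnma1) and 11 at 7 weeks, where Kcna1 and Kcnq1 were no longer called and Kcnh7, Kcnj11, Kcnq5 and Kcnv1 were. Between the IDPN groups, the 0 called lower became 2 with DESeq2, 3 with DESeq2 and no fold threshold, 1 (Kcnk2) with no filter, 1 with at least 10 counts in every library and 0 to 1 with a library left out. The 0 called higher became 0 to 2, the 2 being Kcnd1 and Kcnq5 without IDPN-3wk replicate 3, where Kcnq5 went from −0.66 to 6.74 (adjusted p = 0.038) because the 2 remaining IDPN-3wk libraries held no Kcnq5 reads, so that the fitted value is no bound. Over the libraries left out it ran from −1.25 to 6.74. The median log2 fold change at 3 weeks was −0.21 with at least 10 counts (35 members tested), −0.62 without the 3 libraries, −0.23 with the covariate and −0.64 to −0.49 with a library left out. At 7 weeks it was −0.37, −0.57 without the 3 libraries and −0.68 to −0.40, and between IDPN groups −0.38, −0.0761 and −0.39 to −0.0762. At 3 weeks the call of Kcnh6 was lost under 8 alternatives and that of Kcnk2 under 8, and at 7 weeks those of Kcna1 (4), Kcna2 (1), Kcnj8 (7), Kcnma1 (5) and Kcnq1 (5) were lost. No result with a call in the main setting changed sign. Members with few counts had wide standard errors, and 19 of their 20 zeros were in the libraries with fewer detected genes, which were not the shallowest as a set. No paired analysis was possible because the labels give no replicate numbers, and the animal codes in the titles are not shared between Control and the IDPN groups.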
